A study of Mus musculus with 6 samples.

Results

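Genes that restrain MAP kinase signalling, or that are induced early by it, were followed in 32D cells that carried the leukaemia fusion Nup98::Nsd1. The set was 10 genes: the MAP kinase phosphatases Dusp1, Dusp2, Dusp4, Dusp5 and Dusp6, the Ras pathway inhibitors Spry1, Spred1 and Spred2, and the early response genes Phlda1 and Egr1. Members were all probe sets of the Affymetrix Mouse Genome 430 2.0 array that the platform annotation gives to 1 of these symbols alone. That gave 21 probe sets of the 45037 on the array that are not controls, and 10 of the 18193 genes named there by a single symbol. The study compared 3 samples of mock-transduced 32D cells, labelled for the vector MSCVpuro, with 3 samples of 32D cells expressing Nup98::Nsd1, to learn what the fusion does in acute myeloid leukaemia. 32D is an established line of mouse myeloid cells that depends on interleukin-3, derived, per the labels, from C3H/HeJ marrow infected with Friend leukaemia virus. Both groups share that line and its virus, and beyond the vector and the fusion the labels give no treatment, time or number of clones. Total RNA was hybridised as biotinylated cRNA, 1 array per sample. The labels do not say whether the 3 samples of a group came from separate transductions or cultures, so p-values measure the spread between these samples, which may be technical.

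MAP kinases carry signals from growth factor and cytokine receptors through Ras, RAF and MEK to ERK, and in parallel branches to p38 and JNK. Active ERK induces early response genes within minutes, and among the induced genes are inhibitors that act back on the cascade: dual-specificity phosphatases remove the activating phosphates from the kinases, while Sprouty and Spred proteins act upstream, at the level of Ras and RAF. In interleukin-3-dependent myeloid cells the receptor signals through this cascade as well as through STAT5. The arrays measured RNA only, so they hold no kinase activity or phosphorylation.

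Of the 10 genes, 8 had at least 1 probe set called Present (the MAS5 call that perfect-match probes exceed mismatch probes) on all 3 arrays of a group, and these were tested. In the gene's brightest tested probe set, 6 rose, 1 fell and 1 did not pass the threshold, an adjusted p of 0.05 from limma with Benjamini-Hochberg adjustment over all 20494 tested probe sets. Phlda1, Dusp1, Dusp4, Dusp6, Dusp5 and Dusp2 rose, Spred2 fell, and Spred1 did not pass. The background was high: 42.9% of the 9641 tested genes rose and 29.5% fell. The median log2 fold change was 0.53 over the 8 tested members and 0.12 over all tested genes. Over probe sets, 15 of 21 were tested, of which 8 rose, 2 fell and 5 did not pass, where 42.3% of all tested probe sets rose, 27.6% fell and 69.9% changed in either direction. The 3 signals of one group lay wholly above or below those of the other in 10 of the 15, against 73.2% of all tested probe sets. Among the 14 that were Present on all 6 arrays, 7 rose and 2 fell. The 6 that were not tested were called Absent on all 6 arrays.

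**Figure D1:**
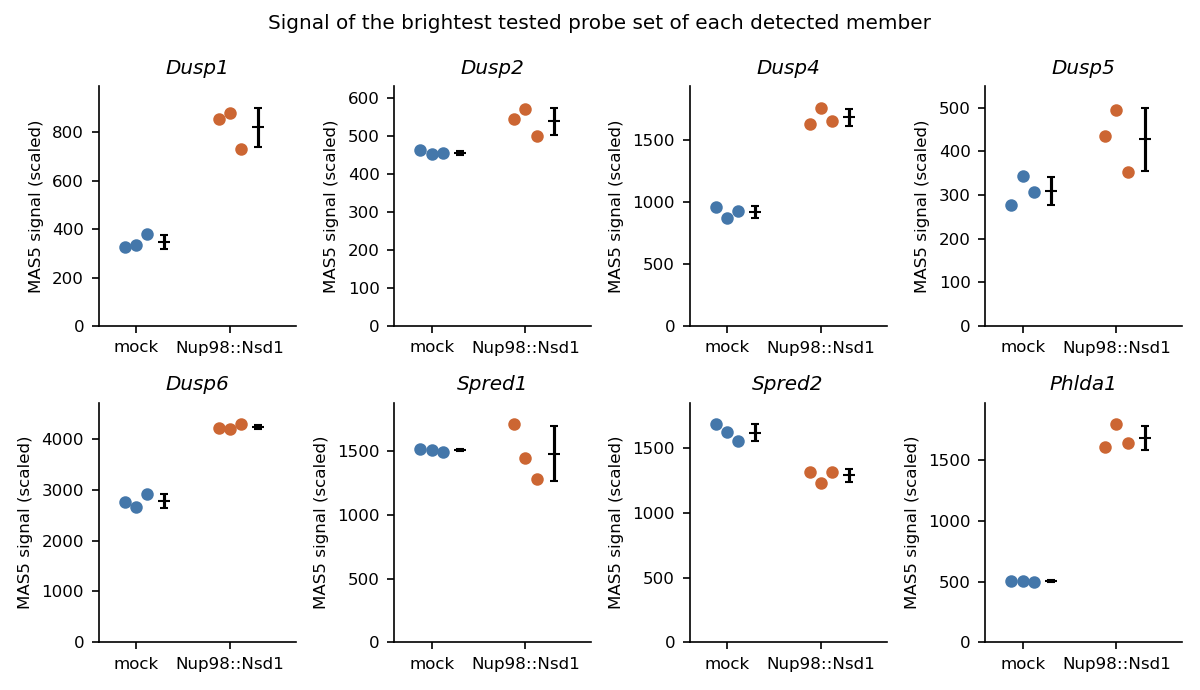
MAS5 signal (scaled, linear axis from 0) of the brightest tested probe set of the 8 detected members on the 3 mock (blue) and 3 Nup98::Nsd1 (orange) arrays, 1 point per array, with the group mean ± SD in black. The fusion arrays lie above every mock array for the 5 phosphatases and Phlda1 and below for Spred2, while for Spred1 the groups overlap.

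Some features of the arrays moved with the group and bear on every value given here. The share of probe sets called Present was 45.1% to 45.9% on the mock arrays and 47.6% to 48.2% on the fusion arrays. For Actb, the signal of the 3' probe set over that of the 5' probe set, a measure of RNA integrity and labelling, was 1.18 ± 0.030 (SD, n = 3) in mock and 1.47 ± 0.026 (SD, n = 3) in fusion samples. The spiked hybridization controls were 0.365 higher on the log2 scale on the fusion arrays, so that rescaling each array to them moved the median log2 fold change of all tested probe sets from 0.15 to -0.21 and the share of calls that were higher from 60.5% to 32.3%. That share was 49.7% after quantile normalization, 44.8% after centring on the 75th percentile and 47.1% after centring on the median. Calls that were lost or turned under one of these 4 scalings are named with each gene. Of 11 myeloid progenitor markers, 9 were Present on all 6 arrays, with Kit Present on none. Of the 10 that were tested 5 rose and 4 fell, while their summed signal, to which bright probe sets contribute most, was 52884 to 55600 in mock and 39296 to 40359 in fusion samples. No T and NK cell or fibroblast marker was Present on all 6 arrays (0 of 6 and 0 of 7 measured), with Cd3e, Cd4, Col1a2 and Pdgfra Present on none. Their summed signals were 242 to 254 and 122 to 199 in mock and 166 to 228 and 151 to 209.6 in fusion samples. Of the B lymphoid markers Cd79b and of the erythroid markers Epor were Present throughout, and the summed signals were 388 to 457 and 476 to 551 in mock and 347 to 479 and 371 to 401 in fusion samples. The part of these differences in the results was not tested. Both tested probe sets of Nup98 rose, with log2 fold changes of 0.47 and 0.52, and none of Nsd1 was tested. Whether their probes lie in the part of the gene kept in the fusion is not given, so they do not check the labels. In bulk RNA, fewer cells with a transcript and less of it per cell cannot be told apart.

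All 5 phosphatases of the set rose on the deposited scale, by 1.18 to 2.36 times, and each is measured by a single probe set that was Present on every array. The calls of Dusp1, Dusp4 and Dusp6 were kept under all 4 other scalings, whereas those of Dusp5 and Dusp2 were lost under each of them. Dusp1, a nuclear phosphatase of p38, JNK and ERK, had signals of 327, 335 and 379.7 on the mock arrays and 855, 879 and 729.9 on the fusion arrays (probe set 1448830_at). Every fusion array stood well above every mock array. The mean rose from 347 ± 28.3 to 821 ± 80.0 (SD, n = 3 each), a log2 fold change of 1.24 (SE 0.096, 95% interval 1.03 to 1.45), or 2.36-fold, with an adjusted p of 4.11e-07 in limma. Its change was smallest with hybridization control scaling, a log2 fold change of 0.87 (adjusted p = 3.11e-06). Of the 9641 tested genes, 552 had a larger log2 fold change.

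Dusp4, a nuclear phosphatase of ERK and JNK, had signals of 962, 871 and 924 in mock and 1634, 1762 and 1657 in fusion samples (1428834_at). The groups were far apart for their spread, at 919 ± 45.5 and 1684 ± 68.1 (SD, n = 3 each). The log2 fold change was 0.87 (SE 0.059; 1.83-fold; limma adjusted p = 1.33e-07), and 0.51 with hybridization control scaling (adjusted p = 5.33e-05). Dusp6, the cytoplasmic phosphatase that acts on ERK, had signals of 2758, 2655 and 2919 in mock and 4216, 4192 and 4282 in fusion samples (1415834_at). The fusion arrays differed from each other by less than the mock arrays did, with means of 2778 ± 133 and 4230.1 ± 46.4 (SD, n = 3 each). Its log2 fold change was 0.61 (SE 0.046; 1.52-fold; limma adjusted p = 3.28e-07). The largest value over the scalings was 0.71 with quantile normalization, and the smallest 0.24 with hybridization control scaling (adjusted p = 0.00122).

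Dusp5, a nuclear phosphatase selective for ERK, had signals of 278, 343 and 306 in mock and 435, 496 and 352 in fusion samples (1437199_at). Although Present throughout, it had MAS5 detection p-values of 0.0461, 0.0303 and 0.0239 on the mock arrays. On the fusion arrays they were 0.0186, 0.00586 and 0.00293. Those of Dusp1, Dusp4 and Dusp6 were at most 0.000732 on any array, and those of Dusp2 at most 0.00586. The groups did not overlap, but the lowest fusion array, replicate 3, was only slightly above the highest mock array. The mean rose from 309 ± 32.6 to 428 ± 72.4 (SD, n = 3 each), a log2 fold change of 0.46 (SE 0.134; 1.38-fold; limma adjusted p = 0.00914). The call was lost with quantile normalization (log2 0.23, adjusted p = 0.149), with centring on the 75th percentile (0.26, adjusted p = 0.0962) or the median (0.29, adjusted p = 0.0682), and with hybridization control scaling (0.09, adjusted p = 0.555), all from limma. Dusp2, a nuclear phosphatase found mainly in blood cells, had signals of 463, 453 and 455 in mock and 545, 572 and 502 in fusion samples (1450698_at). Each fusion array was above the mock arrays, which lay very close together, and the means were 457 ± 5.15 and 539.7 ± 35.6 (SD, n = 3 each). The log2 fold change of 0.24 (SE 0.082; 1.18-fold; limma adjusted p = 0.0217) was the smallest of the 5. It was 0.05 with quantile normalization, 0.04 and 0.07 with centring on the 75th percentile and the median (adjusted p = 0.629, 0.663 and 0.467), and turned to -0.13 with hybridization control scaling (adjusted p = 0.275). The call was also lost without mock replicate 2 or fusion replicate 1 (adjusted p = 0.0563 for each) and without fusion replicate 2 (0.0794).

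**Figure D2:**
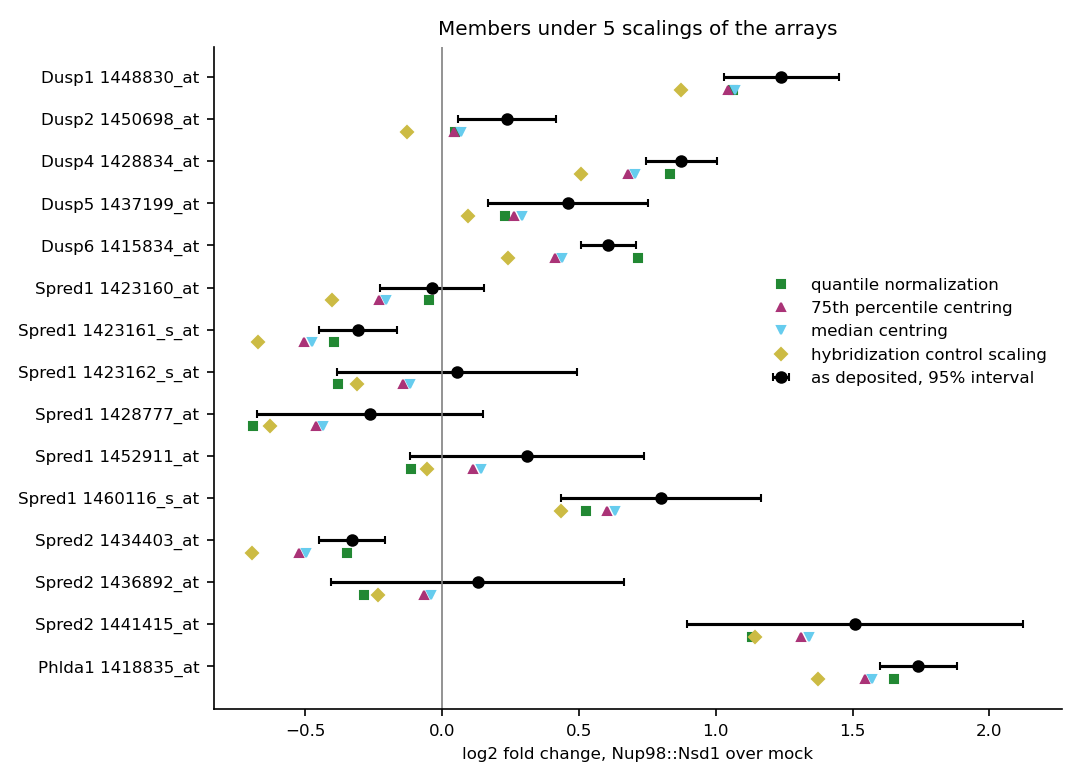
Log2 fold change (fusion over mock, n = 3 arrays each) of the 15 tested member probe sets on the deposited signals, with 95% interval (black), and under 4 other scalings of the arrays (coloured symbols). Dusp1, Dusp4, Dusp5, Dusp6, Phlda1, Spred1 1460116_s_at and Spred2 1441415_at lie above 0 under all 5. Of these, Spred2 1441415_at entered the tests through the fusion group alone. Dusp2 lies at 0.24 as deposited and at -0.13 with hybridization control scaling.

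The log2 ratio of 2 phosphatases within an array does not change when the array is multiplied by a scaling factor, and it was used to compare the phosphatases with each other. The log2 ratio of Dusp1 to Dusp2 was -0.50, -0.44 and -0.26 on the mock arrays and 0.65, 0.62 and 0.54 on the fusion arrays. The groups did not overlap and were apart by 1.002 (SE 0.079). Relative to Dusp1, the changes in the fusion samples were smaller for Dusp4 by 0.37, for Dusp6 by 0.63 and for Dusp5 by 0.78 on the log2 scale. The ratio of Dusp4 to Dusp6 was 0.27 higher and that of Dusp4 to Dusp5 0.41 higher in the fusion samples. The ratio of Dusp2 to Dusp4 was lower by a log2 difference of -0.64, and that of Dusp2 to Dusp6 by -0.37. For Dusp2 over Dusp5 (-0.22) and Dusp5 over Dusp6 (-0.15) the groups overlapped, with exact two-sided permutation p-values of 0.2 and 0.5. Among the 11 pairs computed, which include Spred1 over Spred2, the groups did not overlap in 9. The exact p was then 0.1, the smallest that 3 arrays against 3 allow, and 0.122 after Benjamini-Hochberg adjustment, so no pair could pass the threshold. Quantile normalization is not such a factor and was added after seeing the data. It moved the difference of Dusp1 over Dusp6 to 0.35, of Dusp2 over Dusp6 to -0.67 and of Dusp2 over Dusp4 to -0.78. The difference of Dusp4 over Dusp6 became 0.12, that of Dusp5 over Dusp6 -0.49 and that of Dusp1 over Dusp4 0.23. No sign changed in the 11 pairs. The groups then overlapped for Dusp1 over Dusp4 and no longer did for Dusp5 over Dusp6.

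**Figure D3:**
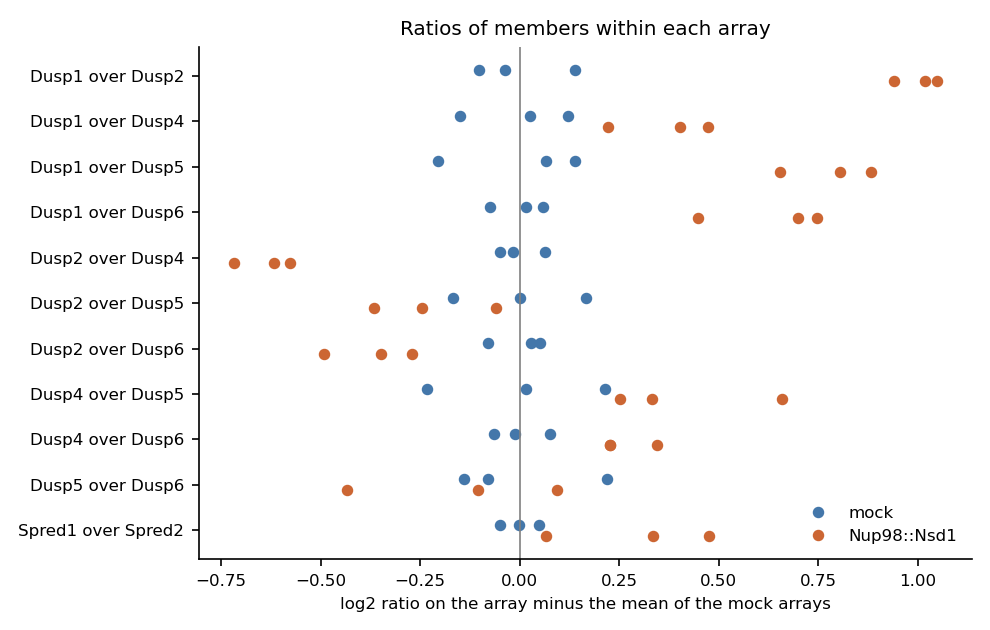
Log2 ratio of 2 members on each array, drawn as its difference from the mean of the 3 mock arrays, for 11 pairs (mock blue, fusion orange, 1 point per array). The fusion arrays are farthest from the mock arrays for Dusp1 over Dusp2, by 1.002 on average, and overlap with them for Dusp2 over Dusp5 and Dusp5 over Dusp6.

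The 250 bases before the transcription start of these genes were searched for elements of transcription factors that act downstream of MAP kinases and cytokine receptors, as context for members that changed by different amounts. RefSeq promoters (GRCm38.p6) were found for 7 of the 10 members: Dusp1, Dusp2, Dusp5, Dusp6, Spry1, Spred1 and Spred2. Those of Dusp1 (minus strand, chr17:26508473-26508722) and Dusp5 (plus strand, chr19:53528895-53529144) held a match and are shown with it in capitals. Those of Dusp6 (plus strand, chr10:99262981-99263230), which rose, and Spred2 (plus strand, chr11:19924192-19924441), which fell in its brightest probe set, held none and are shown beside them. All are printed 5′ to 3′ on the gene's strand, ending at the base before the start.
Dusp1: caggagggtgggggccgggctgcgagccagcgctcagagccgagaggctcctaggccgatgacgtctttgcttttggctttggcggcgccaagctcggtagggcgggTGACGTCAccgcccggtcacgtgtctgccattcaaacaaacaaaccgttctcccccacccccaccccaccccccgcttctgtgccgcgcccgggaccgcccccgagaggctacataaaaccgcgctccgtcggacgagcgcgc
Dusp5: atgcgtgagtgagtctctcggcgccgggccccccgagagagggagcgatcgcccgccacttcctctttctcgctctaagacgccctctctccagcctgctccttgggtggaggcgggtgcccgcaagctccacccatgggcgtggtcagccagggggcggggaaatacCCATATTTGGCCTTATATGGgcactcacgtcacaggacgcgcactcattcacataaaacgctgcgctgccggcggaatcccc
Dusp6: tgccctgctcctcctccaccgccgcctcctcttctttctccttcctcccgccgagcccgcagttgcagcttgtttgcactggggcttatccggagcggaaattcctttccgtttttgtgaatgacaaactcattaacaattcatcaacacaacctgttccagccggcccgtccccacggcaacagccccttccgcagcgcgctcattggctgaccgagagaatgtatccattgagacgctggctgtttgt
Spred2: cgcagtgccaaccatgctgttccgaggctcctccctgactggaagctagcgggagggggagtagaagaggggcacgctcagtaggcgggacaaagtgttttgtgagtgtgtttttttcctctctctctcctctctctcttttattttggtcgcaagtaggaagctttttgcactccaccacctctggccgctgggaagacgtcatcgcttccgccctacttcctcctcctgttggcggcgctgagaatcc
The capitals in Dusp1 are a cyclic AMP response element, TGACGTCA, at position -143 from the start, a sequence that 1.55% of 32851 RefSeq promoters of this length hold. The capitals in Dusp5 are 2 adjacent CArG boxes, the element of serum response factor, at -82 and -72, and 1.47% of promoters hold at least 1. The other motifs searched, on both strands, were the AP-1 site TGANTCA (6.75% of promoters), the ETS site CCGGAAGT (2.88%), the EGR site GCGTGGGCG (0.536%), the STAT site TTCNNNGAA (7.02%) and the TATA element TATAAA (12.4%). None of these 5 was matched in the 7 windows, which says only that those letters are not there. Overlap between different motifs was allowed, and none arose among these matches. A match is a description and not evidence of binding.

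The inhibitors upstream of RAF did not move as one. Spry1, a Sprouty inhibitor of Ras and ERK signalling, has a single probe set (1415874_at) that was Absent on every array, with signals of 55.2, 86.6 and 71.0 in mock and 58.1, 67.9 and 79.5 in fusion samples. These overlap, and below the detection call they carry no order. Spred1 and Spred2, which bring neurofibromin to Ras at the membrane, are covered by 8 and 5 probe sets. Tested probe sets of Spred1 gave opposite calls, and for Spred2 the only one that rose passed the detection filter through the fusion group alone. These probe sets share their target gene and are not replicates of it.

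Spred1 had 6 tested probe sets, of which 1 rose, 1 fell and 4 did not pass. The brightest, 1423160_at, had signals of 1516, 1509.9 and 1497 in mock and 1711, 1449.9 and 1281 in fusion samples. The mock arrays were nearly equal, and the fusion arrays spread to both sides of them. Its log2 fold change was -0.04 (SE 0.086, 95% interval -0.23 to 0.15; limma adjusted p = 0.722), against -0.23 with centring on the 75th percentile (adjusted p = 0.0287), -0.21 on the median (adjusted p = 0.0484) and -0.40 with hybridization control scaling (adjusted p = 0.00192). The next, 1423161_s_at, had signals of 1084, 1133 and 1059 in mock and 824, 921 and 904 in fusion samples, with every fusion array lower. It fell by 0.31 on the log2 scale (SE 0.064; limma adjusted p = 0.00114) and remained a call under the 4 other scalings. In contrast, 1460116_s_at, with signals of 272, 188 and 209 in mock and 406, 448 and 310.1 in fusion samples, rose by a log2 fold change of 0.80 (SE 0.167; limma adjusted p = 0.00112), or 0.43 with hybridization control scaling (adjusted p = 0.0411). The suffix s_at marks probe sets that can also match transcripts of other genes or several transcript variants.

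Of the other tested Spred1 probe sets, 1428777_at had a log2 fold change of -0.26 (limma adjusted p = 0.228), 1452911_at of 0.31 (0.174) and 1423162_s_at of 0.05 (0.824), all at signals between 90.3 and 182. Their groups overlapped. With quantile normalization 1428777_at reached -0.69 (limma adjusted p = 0.00768), with centring on the 75th percentile -0.46 (0.0467) and with hybridization control scaling -0.63 (0.00935). The probe sets 1443652_x_at and 1445228_at were Absent on all arrays and were not tested. The mean of the log2 signals of the 6 tested probe sets gave 0.09 for Spred1 (SE 0.084; limma adjusted p = 0.344).

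Spred2 fell in its brightest probe set, 1434403_at, with signals of 1682, 1619.9 and 1552 in mock and 1319, 1233 and 1313 in fusion samples. All fusion arrays were lower, at 1288 ± 47.6 against 1618 ± 65.1 (SD, n = 3 each), 1.26-fold lower. The log2 fold change was -0.33 (SE 0.055; limma adjusted p = 0.000219), and -0.69 with hybridization control scaling (adjusted p = 1.53e-06). The dim probe set 1441415_at went the other way, with signals of 94.0, 72.9 and 42.7 in mock and 187, 234 and 154 in fusion samples. It was Absent on mock replicate 3, so it entered the tests through the group in which it is high. Its log2 fold change was 1.51 (SE 0.280; 2.85-fold; limma adjusted p = 0.000492), and 0.94 with a pseudocount of 64. Since the filter let it in by its fusion signals, these values are a description and not support for a rise of Spred2. The probe set 1436892_at had a log2 fold change of 0.13 (limma adjusted p = 0.651) with overlapping groups, and 1423001_at and 1441802_at were Absent on all arrays. Averaging the log2 signals of the 3 tested probe sets turned the direction of the gene to 0.44 (SE 0.110; limma adjusted p = 0.00437). That average is carried by 1441415_at, and of both probe sets that were Present on all 6 arrays, 1434403_at fell and 1436892_at did not pass. The ratio of Spred1 to Spred2 within an array, from the brightest probe sets, was 0.29 higher in the fusion samples on the log2 scale (SE 0.124). The log2 ratios were -0.15, -0.10 and -0.05 on the mock arrays and 0.38, 0.23 and -0.03 on the fusion arrays. Fusion replicate 3 was thus barely above the highest mock array.

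**Figure D4:**
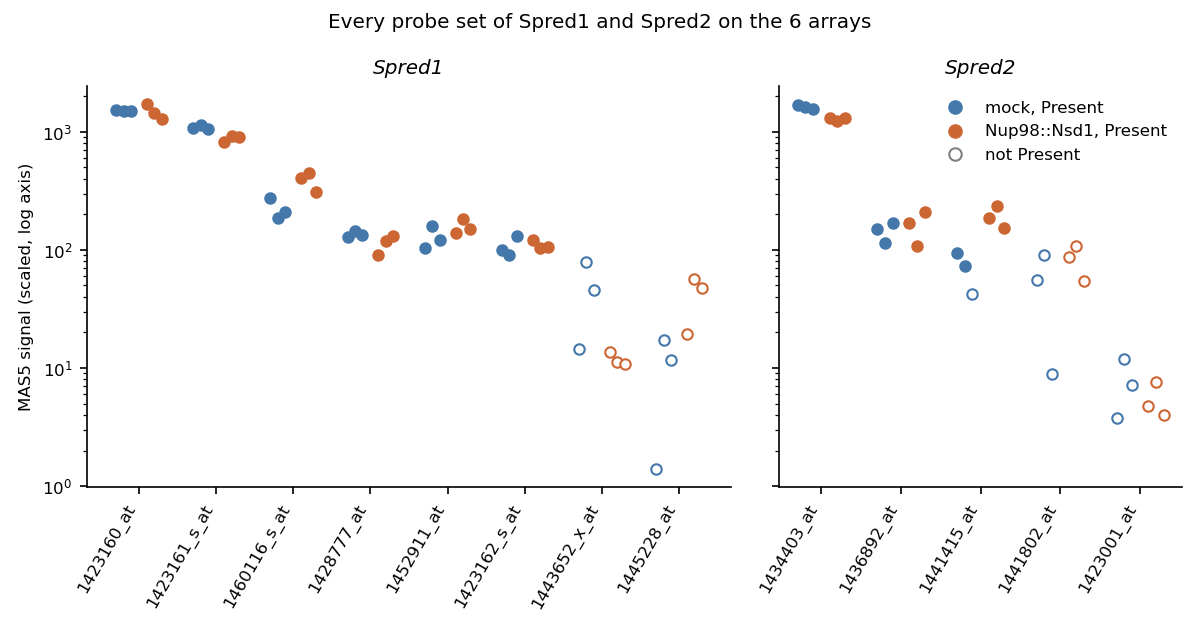
MAS5 signal (scaled, log axis) of the 8 probe sets of Spred1 and the 5 of Spred2 on the 3 mock (blue) and 3 Nup98::Nsd1 (orange) arrays, filled where the call was Present and open where it was not. The brightest probe set of Spred2 is lower on all 3 fusion arrays (1233 to 1319 against 1552 to 1682), whereas 1441415_at is higher (154 to 234 against 42.7 to 94.0).

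Phlda1, a pleckstrin homology-like protein encoded by an early response gene, had the largest change of the set. Its signals were 506, 508 and 492 in mock and 1606, 1791 and 1641 in fusion samples (1418835_at). The mock arrays differed little and every fusion array was far above them. The mean rose from 502 ± 8.78 to 1679 ± 97.9 (SD, n = 3 each), a log2 fold change of 1.74 (SE 0.063, 95% interval 1.60 to 1.88), or 3.34-fold (limma adjusted p = 1.31e-09). Over the other scalings the log2 fold change was 1.38 to 1.65, and 232 of 9641 tested genes had a larger one. Egr1, the zinc-finger transcription factor that is a standard readout of ERK activation, was Absent on all 6 arrays. Its signals were 23.2, 27.5 and 12.4 in mock and 25.9, 30.3 and 34.3 in fusion samples (1417065_at), which overlap and were not tested. At this detection limit the arrays give no direction for Egr1.

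The other genes of the pathway were taken as 4 lists, whose counts stand against a background of 42.9% of tested genes that rose and 29.5% that fell. With hybridization control scaling that background was 2036 of 9641 tested genes that rose and 4861 that fell. It was 2922 and 3947 with centring on the 75th percentile, 3072 and 3768 with centring on the median, and 3497 and 3196 with quantile normalization. Of 21 genes of the ERK cascade, 15 were tested, of which 8 rose and 3 fell, with a median log2 fold change of 0.36. With hybridization control scaling 4 rose and 6 fell, where the median was -0.01 and that of all tested genes -0.25. With quantile normalization 11 rose and 2 fell, with centring on the 75th percentile 7 and 4, and with centring on the median 8 and 3. The docking adaptor Gab2 rose from 598 ± 18.9 to 1603 ± 36.5 (2.68-fold, log2 1.42, SE 0.058), the kinase Rps6ka3, a substrate of ERK, from 3453 ± 42.5 to 6672 ± 166 (1.93-fold, log2 0.95, SE 0.040), and Nras from 1623 ± 13.9 to 2844 ± 60.5 (1.75-fold, log2 0.81, SE 0.044; SD, n = 3 each). Both other tested probe sets of Nras were not called, nor was 1 of the 2 others of Rps6ka3. Grb2, the adaptor that links receptors to the exchange factor SOS, fell by 0.69 on the log2 scale (SE 0.069), with its other tested probe set not called. Araf fell by 0.46 (SE 0.063), with 2 of its 4 other tested probe sets called in the opposite direction. The MEK gene Map2k1 fell by 0.14 (SE 0.054; limma adjusted p = 0.042), a call that was lost with quantile normalization, without the detection filter, without the intensity trend, and without any 1 of the arrays except mock replicate 2. The limma adjusted p of the other 5 genes named here was at most 4.40e-05. The other genes of this list, and Ptpn7 and Map2k7 from the lists that follow, were not analysed here.

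Of 18 other feedback regulators of MAP kinases, 11 were tested, of which 5 rose and 3 fell, with a median of 0.17. With hybridization control scaling 4 rose and 3 fell and the median was -0.19, and it was -0.07 with quantile normalization, -0.02 with centring on the 75th percentile and 0.00284 with centring on the median. The counts lay near the background on the deposited scale. Among the 9 with a probe set Present on all 6 arrays, 4 rose and 3 fell. Dusp10, which rose, was Present on 2 of the 3 mock arrays and entered the tests through the fusion group alone. Dusp16, a phosphatase of JNK and p38, rose 2.41-fold (log2 1.27, SE 0.089), from 385 ± 40.2 to 927 ± 41.7. Dusp3 rose 1.79-fold (log2 0.84, SE 0.065), with 1 of its 2 other tested probe sets called lower, and Ier3 1.43-fold (log2 0.52, SE 0.048). Lower were Rasa2, a GTPase-activating protein of Ras, at -1.35 (SE 0.191), Dusp14 at -0.58 (SE 0.138) and the Sprouty gene Spry2 at -0.23 (SE 0.067; limma adjusted p = 0.00803, the highest of these 6). Spry2 therefore fell while Spry1 was not detected, and Spry3 and Spry4 were not tested for want of a Present call on all arrays of a group.

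Of 32 other early response genes, 20 were tested, of which 13 rose and 3 fell, with a median log2 fold change of 0.72. Csrnp1, 1 of those that rose, was Present on no mock array and entered the tests through the fusion group alone. Among the 18 with a probe set Present on all 6 arrays, 12 rose and 2 fell. With quantile normalization 13 rose and 4 fell, and with centring on the median 11 and 3. With centring on the 75th percentile 11 rose and 6 fell, and with hybridization control scaling 10 and 7. Rgs1, a regulator of G protein signalling, rose from 314 ± 13.1 to 2147 ± 26.8 (6.84-fold; log2 2.77, SE 0.062; limma adjusted p = 5.39e-11). Fos, the AP-1 component and target of ERK signalling, rose from 332 ± 16.9 to 1988 ± 274 (5.96-fold; log2 2.58, SE 0.096; limma adjusted p = 1.46e-09), and the transcription factor Klf6 from 585 ± 56.7 to 2401 ± 132 (4.11-fold; log2 2.04, SE 0.075; all SD, n = 3). Etv5, an ETS factor that responds to ERK, fell by 0.78 (SE 0.105), with both of its other tested probe sets called lower as well. The AP-1 component Fosl1 was Present on all 3 mock arrays (209 ± 19.9, SD, n = 3) and on no fusion array, so it entered the tests through the group in which it is high, and no size of its fall is given. The stress gene Gadd45b fell by 0.36 (SE 0.106; limma adjusted p = 0.0101, the highest of these 6). Fos and Egr1, both early targets of ERK, thus differed in detection: Fos was Present on all 6 arrays and Egr1 on none. Egr3, from the same family as Egr1, rose from 54.6 ± 2.47 to 105 ± 30.5 (limma adjusted p = 0.0072) and did not pass with hybridization control scaling (0.0787). It was named after its values were seen.

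The p38 and JNK branches gave 3 genes that rose and 3 that fell among 10 tested of 12, with a median of -0.04. With hybridization control scaling 2 rose and 7 fell, with centring on the 75th percentile or the median 2 and 6, and with quantile normalization 4 and 4. Mapk11, the beta isoform of p38, rose 2.83-fold (log2 1.50, SE 0.125), from 261 ± 47.3 to 729.7 ± 25.6, and the p38 substrate kinase Mapkapk2 1.46-fold (log2 0.54, SE 0.045). Mapkapk3 rose 1.17-fold (log2 0.23, SE 0.057; limma adjusted p = 0.00398), a call lost with centring on the 75th percentile or the median and turned to -0.14 with hybridization control scaling (adjusted p = 0.089). The upstream kinases Map2k4 and Map2k3 fell by 0.45 (SE 0.079) and 0.37 (SE 0.046), and the JNK gene Mapk9 by 0.28 (SE 0.058), with limma adjusted p-values of at most 0.000978. Both other tested probe sets of Mapk9 and the other of Mapkapk3 were not called.

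**Figure D5:**
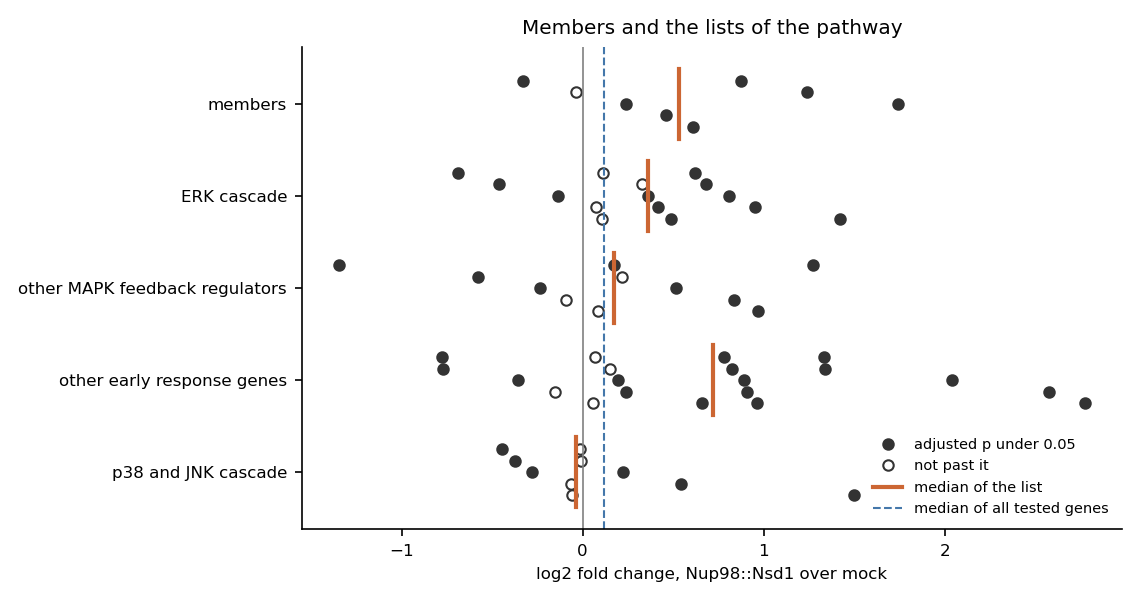
Log2 fold change (fusion over mock, deposited signals) of every tested gene of the member set and of the 4 pathway lists, filled where the limma adjusted p is under 0.05 and open where it is not. The orange bar is the median of each list (0.53, 0.36, 0.17, 0.72 and -0.04 from top to bottom) and the dashed line is the median of all 9641 tested genes, 0.12.

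The genes whose log2 signals followed those of Dusp6 most closely over the 6 arrays were Havcr2, Ciart and Dctn2, with Pearson correlations of 0.9998, 0.9997 and 0.9995. Their own log2 fold changes were 1.72, 2.14 and 0.57. With 6 arrays in 2 groups such a correlation mostly reflects the difference between the groups, and 2294 tested genes had one above 0.95, so the ranking is a description only.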

How the data were processed

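The authors processed the arrays with MAS5, per the submitters' processing notes. No source used here gives its version or scaling target. The deposited signals are scaled intensities on a linear scale, each with a detection call and a detection p-value from the authors' files. Each array held 45101 probe sets, of which 64 were controls and left out, and the 2% trimmed mean was 500.003 on every array. Symbols came from the platform annotation of 2016, updated through a RefSeq table. Signals under 1 (3183) were set to 1, and log2 values were tested with limma 3.58.1 in R 4.3.3 (empirical Bayes with an intensity trend). Testing required a Present call throughout at least 1 of the groups. For each gene the brightest tested probe set, by mean log2 signal, was used. The script was tested on simulated data. Named context genes were up to 3 in each direction per list by smallest p. For Egr1 no genes of like pattern were ranked, since it was Absent throughout. The members and lists were chosen with earlier results of these data known. Alternatives covered pseudocounts, detection filters, 4 scalings, the deposited series matrix, the trend, a replicate block, leaving out each array and averaging probe sets. The number of arrays limits the precision.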

Additional observations from a re-analysis of the deposited data

How the results depend on the processing

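Of 1016 values recomputed under an alternative, 967 were counted as kept, 20 lost a call, 6 gained one, 20 counts or ratios moved further and 3 reversed. Kept meant the same side of the threshold, a count within 1.5 times, or a ratio that shifted by less than the larger group SD. A change of sign was counted as reversed only where a fit passed the threshold, or for ratios where the groups did not overlap. Values without a call could therefore turn and be counted as kept, as Spred1 1452911_at did with quantile normalization (0.31 to -0.11). With hybridization control scaling, 4573 probe sets rose and 9586 fell, Dusp2 turned to -0.13 and Mapkapk3 to -0.14. Member probe sets that fell numbered 4 with hybridization control scaling or centring on the 75th percentile. Member genes that fell numbered 2 with hybridization control scaling and with centring on the 75th percentile or the median, and 0 when a gene's probe sets were averaged, where Spred2 turned to 0.44 through 1441415_at, which passed the filter in the fusion group alone. Leaving out any 1 array gave 5 to 6 member genes that rose and 1 that fell, with 8089 to 8405 probe sets that rose and 5260 to 5453 that fell. A fit with the replicate number as a block, called the replicate block, changed no member call. It gave 8 member probe sets that rose and 2 that fell, and 8628 and 5629 among all tested probe sets. The deviations of same-numbered arrays from their group means correlated at -0.017, -0.011 and 0.021, so no shared deviation was seen. Whether same-numbered samples were made or processed together is not given. Pseudocounts, the detection filters, the series matrix and the trend changed no call of a member probe set tested under them. Probe sets not called Present have no reliable level, which leaves Spry1 and Egr1 without a direction, and a change of all RNA in a group cannot be told apart from the scaling of its arrays.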
